A study of Mus musculus with 24 samples.

Results

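NRF2, the transcription factor encoded by Nfe2l2, and the antioxidant genes it drives were followed in cultured mouse ovarian surface epithelial cells. The set was fixed by name and holds 10 genes of the 35688 in the deposited tables: the factor Nfe2l2, its repressor Keap1, and the targets Nqo1, Hmox1, Gclc, Gclm, Txnrd1, Srxn1, Slc7a11 and Prdx1. All 10 passed the filter on low values in each of the 3 tables. The 24 poly(A) RNA-seq libraries form 8 groups of 3. In the line m1102, cells grew attached as monolayers or in low-attachment plates as spheroids, each untreated or with TGFB1, the cytokine transforming growth factor beta 1, at 10 ng/mL. For the spheroids TGFB1 was given over 4 days before the move to low attachment. The same line was transduced with lentivirus carrying the WPI vector alone or Snail, the repressor encoded by Snai1. The last pair of groups came from cells of BRCA fl/fl mice infected with adenovirus that expressed GFP (the BRCA1 control) or Cre recombinase (BRCA1 deleted), so both derive from floxed cells. The growth medium held serum, ITSS supplement and EGF. The part of Brca1 removed by Cre, and whether the libraries of a group came from separate cultures, are not given in the sources used here, so the p-values speak only of variation among these libraries, which may be technical.

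In resting cells KEAP1 holds NRF2 and hands it to a CUL3 ubiquitin ligase for destruction. Electrophiles or oxidants modify KEAP1, NRF2 then accumulates, pairs with a small MAF protein and binds antioxidant response elements beside its targets. Because this control acts on the protein, the Nfe2l2 transcript level does not measure NRF2 activity. The targets cover quinone reduction (Nqo1), heme breakdown (Hmox1), cystine import (Slc7a11), glutathione synthesis (Gclc and Gclm, the catalytic and modifier subunits of glutamate-cysteine ligase) and thiol reduction (Txnrd1, Srxn1, Prdx1). Several have other regulators too: Slc7a11 also answers to ATF4, the factor of amino acid stress, and Hmox1 to heme through BACH1. The ovarian surface epithelium is the mesothelium-like layer that ruptures and is repaired at ovulation.

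On GRCm38, with GENCODE M21 genes, all members are protein-coding. Nfe2l2 (ENSMUSG00000015839) lies on chromosome 2, 75675513 to 75704641, and Srxn1 (ENSMUSG00000032802) on chromosome 2, 152105516 to 152111376. Gclm (ENSMUSG00000028124) and Slc7a11 (ENSMUSG00000027737) lie on chromosome 3, at 122245557 to 122270732 and 49892526 to 50443614. Prdx1 (ENSMUSG00000028691) lies on chromosome 4, 116685544 to 116700822. Hmox1 (ENSMUSG00000005413) and Nqo1 (ENSMUSG00000003849) share chromosome 8, at 75093621 to 75100589 and 107388225 to 107403206. Keap1 (ENSMUSG00000003308) and Gclc (ENSMUSG00000032350) share chromosome 9, at 21229730 to 21239361 and 77754535 to 77794485. Txnrd1 (ENSMUSG00000020250) lies on chromosome 10, 82833951 to 82897712. Other annotated genes overlap the spans of Nfe2l2, Keap1, Gclm, Txnrd1 and Slc7a11, introns included. The gene overlapping Keap1, Gm16754, lies on the opposite strand. Whether reads of those 5 are shared with the overlapping genes was not examined.

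Promoter stretches are shown for 5 members that hold a searched motif, so that the elements can be seen beside the genes measured. No result was tested against them. They come from RefSeq on GRCm38.p6, read 5′ to 3′ on the strand of the gene and upstream of its start. Of the members, 8 had an entry, with 10 promoters between them. Hmox1 and Gclc had none. Motifs were searched on both strands of the 250 bases before each start. In the Gclm (chr3:122245397-122245457), Prdx1 (chr4:116685439-116685499) and second Txnrd1 (chr10:82859086-82859146) promoters, capitals mark the antioxidant response element core, TGACNNNGC. In Srxn1 (chr2:152105409-152105494) they mark the AP-1 site, TGACTCA, bound by FOS and JUN. In Slc7a11 (chr3:50443615-50443744, minus strand) they mark the core of the C/EBP-ATF composite element, TGATGNAA, which ATF4 can bind. The other 4 genes shown lie on the plus strand.
Gclm: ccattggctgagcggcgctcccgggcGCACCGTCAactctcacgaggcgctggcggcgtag
Prdx1: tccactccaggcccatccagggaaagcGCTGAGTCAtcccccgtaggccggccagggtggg
Txnrd1: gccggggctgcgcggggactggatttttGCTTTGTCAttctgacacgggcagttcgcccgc
Srxn1: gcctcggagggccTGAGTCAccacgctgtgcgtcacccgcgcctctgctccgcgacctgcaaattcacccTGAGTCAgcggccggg
Slc7a11: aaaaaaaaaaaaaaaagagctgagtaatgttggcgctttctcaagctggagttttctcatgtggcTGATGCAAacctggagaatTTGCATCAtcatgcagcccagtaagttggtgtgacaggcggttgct

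The antioxidant core begins 134 bases before the start of Gclm, 133 before that of Prdx1 and 92 before the second start of Txnrd1, and a further match begins 240 bases before the start of Nfe2l2. The same letters occur in 10.2% of all 32851 RefSeq promoters. The AP-1 site begins 102 and 45 bases before the start of Srxn1, and 237 and 131 bases before that of Prdx1, where the nearer match lies inside the antioxidant core. It occurs in 4.46% of promoters. The composite element core begins 66 and 47 bases before the start of Slc7a11, on opposite strands, and occurs in 3.45% of promoters. These matches describe letters in a short window and do not show binding.

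Levels are in scaled TPM, the authors' length-normalized values rescaled per library, so genes can be ranked within a table. Per library they summed to between 955433 and 1166749 over the 4 culture groups, between 983449 and 1021026 for WPI and Snail, and between 796668 and 1810667 for the BRCA1 groups. Depth is unknown. Of the 12 markers fixed for ovarian surface epithelium, 11 averaged at least 1 in untreated monolayers, Krt8 being under 1 in every m1102 library, and all 12 did in both BRCA1 groups. The summed level of these markers was 2282 to 2422 in untreated monolayers, 1201 to 1566 with TGFB1, 290 to 503 in untreated spheroids and 267 to 496 in TGFB1 spheroids, so it moved with culture and with TGFB1 in monolayers. In bulk RNA fewer cells of a type cannot be told from less RNA per cell. Of 5 endothelial markers 2 averaged at least 1 in TGFB1 spheroids, where the list summed to 26.0 to 52.4 with Emcn, Kdr and Tek under 1, against 1.05 to 1.24 in untreated monolayers. Fibroblast and stroma markers summed to 1619 to 1770 in untreated monolayers, 1158 to 1221 with TGFB1, 691 to 831 in untreated spheroids and 619 to 1268 in TGFB1 spheroids. Granulosa and theca markers summed to 33.0 to 37.0, 30.3 to 33.4, 64.9 to 68.2 and 39.9 to 43.2 in the same order. The 7 leukocyte markers summed to 18.5 to 25.7, 7.65 to 9.99, 14.7 to 66.5 and 11.9 to 63.4, with 1 of them averaging at least 1, and Ptprc, the pan-leukocyte marker, under 1 in every library. The part of these markers in the results below was not tested. By their titles, all 6 monolayer libraries are re-analysed ones while the spheroids are not, so culture and origin cannot be told apart. Untreated monolayers 1 and 2 are tied by their labels to a single earlier sample, but their values differed (r = 0.991). Within groups of this line the correlations ran from 0.965 to 0.994, the untreated spheroid 3 standing at 0.970 from both others. Tgfb1 itself, which does not read the added protein, was 34.6 to 40.2 in monolayers, 93.8 to 107 in untreated spheroids and 624 to 991 in TGFB1 spheroids. Snai1, as a check, was 9.81 to 13.7 in the WPI libraries and 193 to 234 with Snail. Brca1 was 5.34, 11.1 and 4.09 in the libraries labelled BRCA1 deleted and 4.27, 12.3 and 3.66 in those labelled control, so at gene level it does not separate them. A deletion of some exons need not lower the gene's total, and directions in that experiment rest on the labels.

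Spheroid culture went with higher transcripts of 5 members, Nqo1, Slc7a11, Gclc, Nfe2l2 and Keap1. Against untreated monolayers, untreated spheroids had 5.91 times the mean Nqo1 level, 5.14 times the Slc7a11 level, 1.66 times the Gclc level, 1.45 times the Nfe2l2 level and 1.33 times the Keap1 level. These 5 of 10 members rose at a Benjamini-Hochberg adjusted p under 0.05 over all genes (limma, two-sided), and none fell. Culture moved much of the transcriptome: 55.2% of the 13509 tested genes were called (27.6% as higher and 27.7% as lower), so 5 of 10 is close to the background share. Groups did not overlap for 7 members, 6 higher and 1 lower (Hmox1), beside 65.3% of all genes (32.8% higher and 32.5% lower). The median member changed by 0.38 on the log2 scale, against 0.0061 over all genes.

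The regulators come first. Nfe2l2 stood at 134, 140.3 and 138 scaled TPM in untreated monolayers and at 189.8, 187 and 223 in untreated spheroids, with no overlap. The log2 fold change was 0.53 ± 0.13 (SE; adjusted p = 0.00528, limma). Keap1, the repressor, moved the same way, from 39.0, 37.2 and 39.4 to 50.8, 49.1 and 53.7, a change of 0.40 ± 0.09 (adjusted p = 0.00231, limma). Factor and repressor were thus both highest in the untreated spheroids among the 4 groups of this table.

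Nqo1 encodes NAD(P)H quinone dehydrogenase 1, which reduces quinones without leaving a radical and is a customary readout of NRF2. Its level was 25.8, 17.4 and 30.6 in untreated monolayers and 164, 163 and 109 in untreated spheroids. The groups stood far apart, and the log2 fold change was 2.53 ± 0.22 (adjusted p = 5.25e-06, limma). Slc7a11, the light chain of the cystine/glutamate exchanger xCT, was the lowest member in monolayers, at 2.05, 1.87 and 2.52. Untreated spheroids 1 and 2 reached 14.0 and 14.3, while spheroid 3 stood at 4.77, still above every untreated monolayer. The change was 1.81 ± 0.31 (adjusted p = 0.000576, limma), and 2.27 without spheroid 3.

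The subunits of glutamate-cysteine ligase, the rate-limiting enzyme of glutathione synthesis, parted. Gclc rose from 51.0, 45.0 and 53.6 to 80.6, 85.4 and 82.4, by 0.72 ± 0.15 (adjusted p = 0.00218, limma). Gclm was 172, 144 and 179 in monolayers and 142, 166 and 105 in spheroids, overlapping groups with a difference of -0.28 (95% interval -0.80 to 0.24; adjusted p = 0.345, limma).

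The remaining enzymes did not pass. Hmox1, heme oxygenase 1, was 657, 539 and 685 in monolayers and 362, 457 and 188 in spheroids. Every spheroid library lay lower, yet the spread was wide and the difference of -0.98 ± 0.47 missed the threshold (adjusted p = 0.0947, limma). It passed as lower in a fit of the 6 libraries compared (-0.98, adjusted p = 0.0290, limma), where 7 members were called beside 57.8% of all genes. With library weights it passed too (-0.73, adjusted p = 0.00911, limma), where 8 members were called beside 72.2% of all genes. Txnrd1, the cytosolic thioredoxin reductase, differed by -0.051 (adjusted p = 0.784, limma), a sign that turned with equal column sums. Srxn1, which repairs overoxidized peroxiredoxins, was 50.7, 49.4 and 57.7 against 71.0, 79.6 and 55.5, a difference of 0.37 ± 0.16 (adjusted p = 0.0671, limma). Prdx1, an abundant peroxiredoxin, was 720.3, 706 and 774 against 893, 927 and 789.8, a difference of 0.24 ± 0.11 (adjusted p = 0.0903, limma). Both passed without untreated spheroid 3, Srxn1 at 0.51 (adjusted p = 0.0147) and Prdx1 at 0.31 (adjusted p = 0.0480), which makes 7 of 10 called, beside 56.1% of all genes in that fit. That library was the lowest of its group for 7 of the 10 members.

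**Figure D1:**
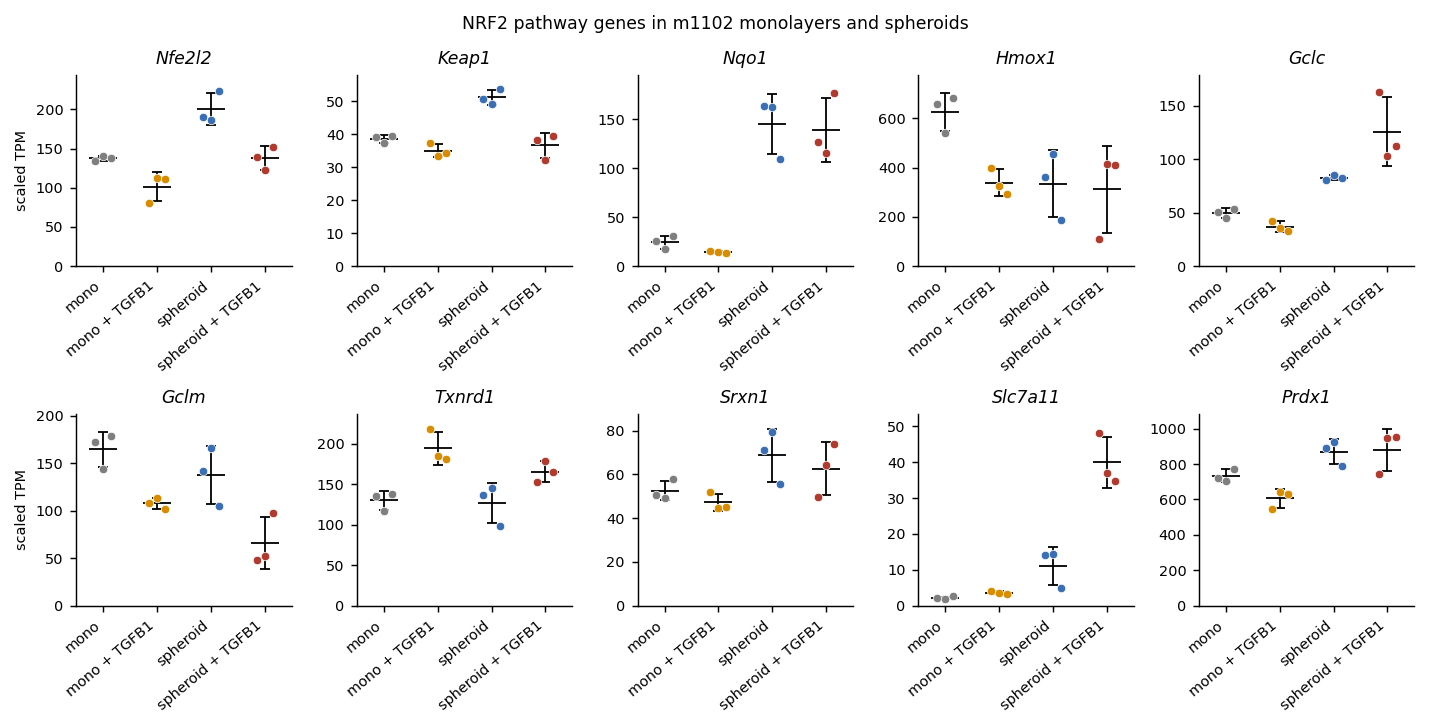
Scaled TPM (vertical axes, each from 0) of the 10 genes in the 4 groups of m1102 libraries, with a point per library, the mean as a dash and SD as bars (n = 3). Nqo1 and Slc7a11 lie higher in every spheroid library than in any monolayer library, and Gclm is lowest in the TGFB1 spheroids.

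With TGFB1 in monolayers 2 members passed, Nfe2l2 as lower and Txnrd1 as higher, and neither call held in every fit. Nfe2l2 was 80.5, 112 and 112 with TGFB1 and fell by 0.45 ± 0.13 on the log2 scale (adjusted p = 0.0388, limma). Txnrd1 rose from 136, 117 and 138 to 218, 185 and 181, by 0.58 ± 0.14 (adjusted p = 0.0183, limma). These 2 of 10 members compare with 16.9% of all tested genes (9.12% higher and 7.79% lower). The groups did not overlap for 9 members, 7 lower and 2 higher, against 47.5% of all genes (22.1% lower and 25.4% higher). The Nfe2l2 call was lost with equal column sums (-0.41, adjusted p = 0.0779, limma), with no filter and with no variance trend. It was also lost without any 1 of the 3 untreated monolayers (adjusted p = 0.0898, 0.109 and 0.103) and without TGFB1 monolayer 1 (0.118, change -0.29). The Txnrd1 call was lost without untreated monolayer 2 (0.0760) or TGFB1 monolayer 1 (0.0778).

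The members that were lower in all 3 TGFB1 monolayers without passing were Nqo1, Gclc, Gclm, Hmox1, Prdx1 and Keap1. Nqo1 read 15.8, 14.9 and 13.7, a difference of -0.66 ± 0.22 (adjusted p = 0.0660, limma), and it passed without untreated monolayer 2 (-0.88, adjusted p = 0.0287). Gclm read 109, 113 and 102, a difference of -0.60 (adjusted p = 0.109), and Gclc 42.5, 35.2 and 33.3, a difference of -0.42 (adjusted p = 0.0849). Hmox1 read 399.5, 325 and 295, a difference of -0.89 (adjusted p = 0.226), with a standard error of 0.47 that is shared with the more variable spheroids. Fitted on the 6 monolayer libraries alone, 8 members passed, 6 lower (Nfe2l2, Nqo1, Gclc, Gclm, Hmox1, Prdx1) and 2 higher (Txnrd1 and Slc7a11), in a fit that called 3771 genes (30.7%) in place of 2284. Slc7a11 read 4.12, 3.44 and 3.24 with TGFB1, against 2.05, 1.87 and 2.52, a difference of 0.55 in the joint fit (adjusted p = 0.266). Srxn1 differed by -0.15 (adjusted p = 0.563) with overlapping groups.

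In spheroids, prior TGFB1 separated the members into a rising and a falling set. Slc7a11, Gclc and Txnrd1 rose and Gclm, Nfe2l2 and Keap1 fell, 6 of 10 members beside 35.6% of all tested genes (18.8% higher and 16.8% lower). For the same 6 the groups did not overlap, beside 43.9% of all genes (23.4% higher and 20.5% lower). Slc7a11 reached 48.2, 36.9 and 34.8, the highest of any group in this table and 3.62 times the untreated spheroid mean (1.88 ± 0.31, adjusted p = 0.00116, limma). Gclc reached 162, 103 and 112, a change of 0.57 ± 0.15 (adjusted p = 0.0150, limma), lost with equal column sums (0.38, adjusted p = 0.109) and in a fit of the 6 spheroid libraries alone (adjusted p = 0.0598). Gclm dropped to 48.3, 52.6 and 97.2, all below the untreated spheroids, by 1.10 ± 0.24 (adjusted p = 0.00482, limma). The catalytic subunit was thus higher and the modifier lower in the same libraries.

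Nfe2l2 fell from 189.8, 187 and 223 to 139.7, 122 and 152, by 0.53 ± 0.13 (adjusted p = 0.00957, limma). Its mean of 138 ± 14.8 (SD, n = 3) lay beside the 137 ± 3.04 of untreated monolayers. Keap1 fell to 38.3, 32.3 and 39.3, by 0.47 ± 0.09 (adjusted p = 0.00182, limma). The Txnrd1 rise, from 137, 146 and 98.6 to 152, 178 and 165, was borderline (0.40 ± 0.14, adjusted p = 0.0483, limma). It was lost without untreated spheroid 1 (0.0566) or 3 (0.132, change 0.22), without TGFB1 spheroid 2 (0.153) or 3 (0.0902), and with equal column sums (0.21, 0.231). Of the 10 other settings it was kept in 3, and lost also with median-ratio scaling (0.0567), library weights (0.0911) and the 6 spheroid libraries alone (0.124).

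Nqo1 did not pass: it read 127, 115 and 177 under TGFB1, and the difference of -0.058 had a 95% interval of -0.55 to 0.43 (adjusted p = 0.862, limma). Hmox1 read 109, 414 and 412, so TGFB1 spheroid 1 stood far below the others, and the difference of -0.25 turned to 0.39 without that library. Srxn1 (-0.13, adjusted p = 0.538) and Prdx1 (0.012, adjusted p = 0.947) overlapped between groups, and Prdx1 turned to -0.17 with equal column sums and -0.0025 with median-ratio scaling. With equal column sums the median of all genes shifted by -0.16, and the calls split into 1589 higher and 3751 lower in place of 2544 and 2266.

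**Figure D2:**
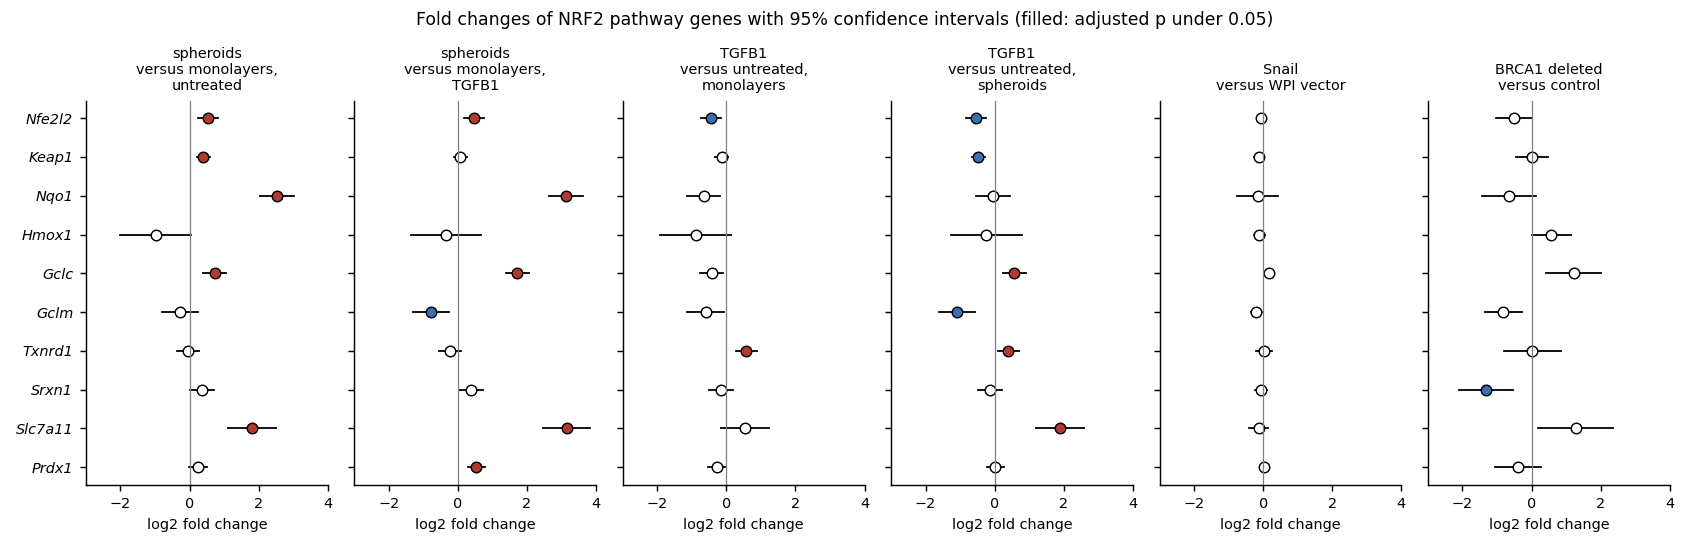
Log2 fold changes (horizontal axes) of the 10 genes in 6 comparisons, with 95% confidence intervals from limma and filled points where the adjusted p was under 0.05 (red higher, blue lower). Nqo1 and Slc7a11 show the widest spheroid effects, and no point is filled for Snail.

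Between TGFB1-treated cultures, 5 members were higher in spheroids and 1 was lower. Slc7a11 was 11.1 times the TGFB1 monolayer mean (3.14 ± 0.31, adjusted p = 1.17e-05, limma). Nqo1 was 9.42 times higher (3.13 ± 0.22, adjusted p = 9.80e-07, limma), and Gclc 3.40 times (1.72 ± 0.15, adjusted p = 5.51e-06, limma). Prdx1 rose by 0.53 ± 0.11 (adjusted p = 0.00238), from 545, 640.3 and 633 to 744, 948 and 952. Nfe2l2 rose by 0.45 ± 0.13 (adjusted p = 0.0139), a call lost with equal column sums (0.28, adjusted p = 0.131) and without TGFB1 spheroid 3 (adjusted p = 0.0537). Gclm alone fell, by 0.77 ± 0.24 (adjusted p = 0.0184). It lost its call without TGFB1 monolayer 2 (0.0539) and without TGFB1 spheroid 1 (-0.58, 0.0698) or 2 (0.0689). These 6 of 10 compare with 51.9% of all genes (25.3% higher and 26.5% lower). Groups did not overlap for 5 higher and 2 lower members (Gclm and Txnrd1), beside 59.4% of all genes (29.2% higher and 30.2% lower). Calls over all genes split into 2423 higher and 4898 lower with equal column sums in place of 3424 and 3585. Srxn1 differed by 0.39 (adjusted p = 0.0586) and passed without TGFB1 spheroid 1 (0.54, adjusted p = 0.0114). Keap1 differed by 0.064 and turned to -0.11 with equal column sums.

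Whether the TGFB1 effect differed between the 2 cultures was tested with an interaction term, the effect in monolayers being subtracted from that in spheroids. For the spheroids TGFB1 was given before the move to low attachment. Culture therefore cannot be told apart here from the timing of TGFB1 or from the origin of the libraries. Gclc was the 1 member that passed. It was lower in every TGFB1 monolayer than in any untreated one, without passing there, and higher in every TGFB1 spheroid than in any untreated one, a difference of effects of 0.99 ± 0.22 (adjusted p = 0.0117, limma). Of all tested genes 15.8% passed this test (8.72% higher and 7.11% lower). With equal column sums, which shifted the median gene by -0.21, the Gclc difference was 0.77 and missed the threshold (adjusted p = 0.0533), while Keap1 passed at -0.56 (adjusted p = 0.0266, against -0.33 and 0.0855 as deposited), and calls over all genes split into 731 higher and 1914 lower in place of 1178 and 960. For Slc7a11 the difference of effects was 1.34 ± 0.44 and did not pass (adjusted p = 0.0639). It passed without untreated spheroid 1 (1.56, 0.0498), 2 (1.57, 0.0456) or 3 (0.87, 0.0172). Gclm differed by -0.49 (adjusted p = 0.357) and passed without TGFB1 spheroid 3 (-0.80, 0.0353). For Nqo1 (0.60, adjusted p = 0.225) and Hmox1 (0.64, adjusted p = 0.560) the interval held 0. The effects of TGFB1 in monolayers and in spheroids share no library, but each shares a group with each culture comparison, so those values are not independent.

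The ratio of the Gclc to the Gclm level was 0.303 ± 0.009 (SD, n = 3) in untreated monolayers and 0.343 ± 0.043 with TGFB1. It was 0.566, 0.515 and 0.784 in untreated spheroids and 3.36, 1.96 and 1.15 in TGFB1 spheroids, where the catalytic transcript exceeded the modifier in every library. In m1102 monolayers with the vectors it was 0.250 ± 0.007 (WPI) and 0.321 ± 0.012 (Snail). In the BRCA1 table it was 0.0998, 0.214 and 0.0718 in controls and 0.495, 0.473 and 0.506 in deleted libraries. The ratios did not overlap between TGFB1 and untreated spheroids, between Snail and WPI, or between deleted and control libraries. TGFB1 and untreated monolayers overlapped. The ratio restates the levels of the 2 genes, and how often ratios of other gene pairs fail to overlap was not examined. Neither Gclc nor Gclm passed with Snail or in the main BRCA1 fit.

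**Figure D3:**
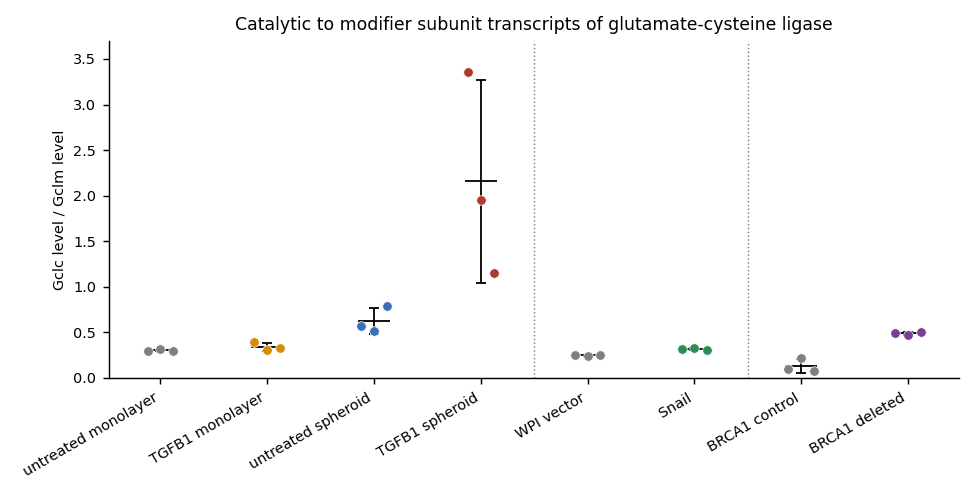
Ratio of Gclc to Gclm scaled TPM (vertical axis) in the 8 groups, with a point per library, the mean as a dash and SD as bars (n = 3). Dotted lines part the 3 tables, and the TGFB1 spheroids, from 1.15 to 3.36, hold the highest ratios of the first.

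Across the 4 culture groups, Slc7a11 had the widest range of group means (3.69 on the log2 scale), then Nqo1 (3.19), Gclc (1.72), Gclm (1.37), Hmox1 (1.23) and Nfe2l2 (0.98). Txnrd1 (0.63), Keap1 (0.54), Prdx1 (0.53) and Srxn1 (0.52) varied least, and for those 4 between 32.2% and 41.6% of tested genes had a smaller range. For Slc7a11 that share was 97.3% and for Nqo1 95.8%. The genes with the most similar profile over the 12 libraries, by root-mean-square distance of centred log2 values among 13509 genes, were Acat3 (0.356), Als2cl (0.385) and Itga5 (0.386) for Slc7a11. For Nqo1 they included Acss2 (0.306) and Macrod1 (0.353), and for Gclc they were Rnf141 (0.163), Slc41a2 (0.185) and Ust (0.201). The libraries of a group share culture and origin, so this is a description of likeness.

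With Snail no change in the pathway passed the threshold. None of the 10 members passed (limma), 3 had an unadjusted p under 0.05 (Gclc higher, Gclm and Keap1 lower), and none had a q under 0.05 in the authors' deposited table. Over all 12240 genes 210 were called, 1.72%, and 1813 had an unadjusted p under 0.05. The widest difference was that of Gclm, at 198, 199 and 178 with WPI against 165, 157 and 177 with Snail (-0.20 ± 0.07, adjusted p = 0.219, limma). Gclc read 49.3, 48.5 and 45.7 against 53.2, 52.3 and 54.6 (0.15 ± 0.06, adjusted p = 0.247, limma). Groups did not overlap for Gclc (higher) nor for Gclm, Keap1 and Slc7a11 (lower), 4 of 10 against 20.6% of all genes (9.7% higher and 10.9% lower). Nfe2l2 was 129.6, 139 and 135 against 122, 132 and 134 (95% interval of the difference -0.19 to 0.08). Nqo1 spread widely within each group, at 37.9, 42.1 and 23.5 against 26.3, 24.0 and 42.2 (-0.76 to 0.44). For Hmox1, Txnrd1, Srxn1, Slc7a11 and Prdx1 the intervals lay within -0.41 and 0.27.

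Among cells of the floxed line, the libraries labelled BRCA1 deleted had lower Srxn1, Gclm, Nfe2l2, Nqo1 and Prdx1 and higher Gclc and Hmox1 than every control library, 7 of 10 members beside 44.9% of all genes (26.6% higher and 18.3% lower). Of these, Srxn1 fell past the threshold, from 74.7, 34.8 and 63.9 to 20.3, 26.9 and 18.2 (by 1.31 ± 0.33, adjusted p = 0.0441, limma). That is 1 of 10 members, against 14.3% of all 12775 tested genes (9.04% higher and 5.27% lower). The call was lost without control 1 (adjusted p = 0.188) or 3 (0.111) and without deleted library 1 (0.192), 2 (0.1001) or 3 (0.179). Gclm read 218, 156 and 179 in controls and 100.5, 115 and 93.9 in deleted libraries (-0.82 ± 0.23, adjusted p = 0.0525, limma). Gclc read 21.7, 33.4 and 12.9 against 49.7, 54.5 and 47.5 (1.22 ± 0.34, adjusted p = 0.0542, limma). Slc7a11 read 2.64, 8.36 and 1.95 against 13.4, 10.4 and 7.68 and overlapped only through control 2 (1.28 ± 0.46, adjusted p = 0.0880, limma).

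Control 2 stands apart from the other controls: its correlation with them was 0.917 and 0.866, against 0.979 between those 2, and its summed signal was 796668 against 1217651 and 1810667. The deleted libraries summed to 819962 to 843146. Without it 4 of 10 members passed, beside 66.2% of all genes (8295): Srxn1 at -1.64 (adjusted p = 0.000578, limma), Slc7a11 at 1.78 (0.000964), Gclc at 1.54 (0.00113) and Gclm at -0.93 (0.00285). In the authors' deposited table, fitted with all libraries, q was 0.00574 for Gclm, 0.00606 for Srxn1 and 0.0316 for Gclc, the 3 members under 0.05, with 0.108 for Slc7a11. How many of all genes had a q under 0.05 there was not counted.

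The other members of this experiment are given as levels. Nfe2l2 read 127, 128 and 101 in controls and 82.1, 96.4 and 72.7 in deleted libraries (-0.50 ± 0.22, adjusted p = 0.130, limma). Nqo1 read 17.4, 10.1 and 10.2 against 7.84, 5.09 and 10.0 (-0.65, adjusted p = 0.174), and Prdx1 923, 842 and 764 against 591, 735 and 603 (-0.39, adjusted p = 0.297). Hmox1 read 133, 95.8 and 93.7 against 171, 138 and 169 (0.58, adjusted p = 0.113). Keap1 (0.014) and Txnrd1 (0.021) overlapped between groups. Scaling bears on these signs: the median of all genes was 0.17 as deposited, 0.63 with equal column sums and 0.052 with median-ratio scaling. With equal column sums Srxn1 lost its call (-0.79, adjusted p = 0.140), Nfe2l2 turned to 0.036 and Prdx1 to 0.15, and with median-ratio scaling Keap1 turned to -0.12 and Txnrd1 to -0.12. Over all settings Gclm ranged from -1.10 to -0.28, with an adjusted p up to 0.509 (limma). It passed in 2 of the 9 other settings that kept every library. With equal column sums the calls over all genes were 705 higher and 173 lower, in place of 1155 and 673.

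**Figure D4:**
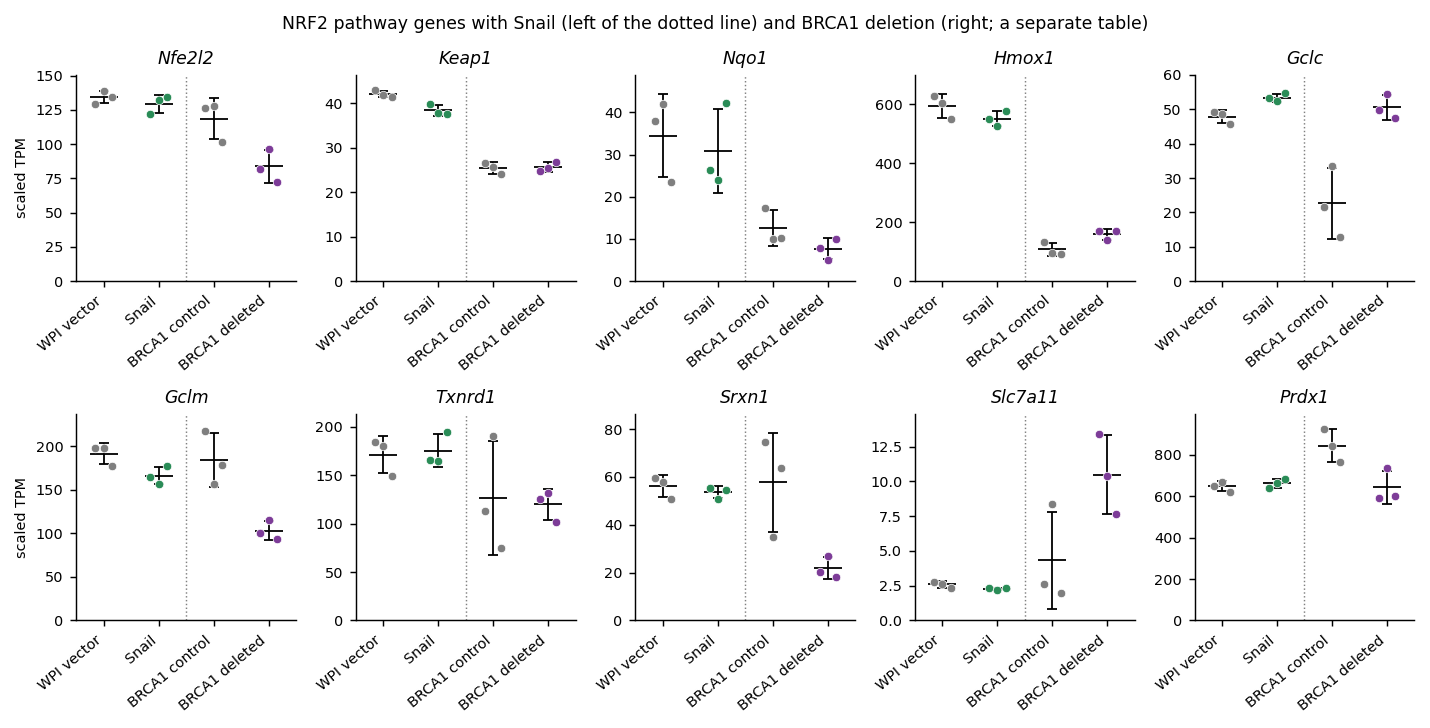
Scaled TPM (vertical axes, each from 0) of the 10 genes in the Snail experiment (left of each dotted line) and the BRCA1 experiment (right), with a point per library, the mean as a dash and SD as bars (n = 3). The tables were normalized separately, so levels compare only on the same side of the line, where Gclc lies higher and Gclm and Srxn1 lower in every BRCA1 deleted library.

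Around the members, 7 lists fixed by function were read from the same fits. In untreated spheroids against monolayers, 9 of 13 partners and regulators of NRF2 were called, 6 higher and 3 lower, with a median of 0.30. They included Maff, a small MAF partner (1.31 ± 0.22, adjusted p = 0.000422, limma), Nfe2l1, a related factor of proteasome genes (1.22 ± 0.19, adjusted p = 0.000280), and Nfe2l3 (-1.55 ± 0.23, adjusted p = 0.000240). The NADPH list is named for the electron donor of NQO1 and of thiol reduction. It holds G6pdx, Pgd, Me1, Idh1, Taldo1 and Tkt, of which Taldo1 and Tkt do not themselves make NADPH. Of these 6 genes, 4 rose and 1 fell (median 0.37). Idh1, cytosolic isocitrate dehydrogenase, rose by 2.57 ± 0.38 (adjusted p = 0.000203), and Taldo1, transaldolase, fell by 1.71 ± 0.30 (adjusted p = 0.000640). Of 9 heme and iron genes, 2 rose and 5 fell (median -0.59), with Slc40a1, the iron exporter ferroportin, up by 1.84 ± 0.35 and Tfrc, the transferrin receptor, down by 1.74 ± 0.29 (adjusted p = 0.000988 and 0.000462). Glutathione genes split evenly, 5 higher and 5 lower of 12 (median -0.081). The thioredoxin and superoxide list had 2 higher and 3 lower of 14 (median 0.14), the conjugation list 5 higher and 2 lower of 15 (median 0.21) and the ATF4 targets 3 higher and 2 lower of 11 (median 0.33). Within the conjugation list, Gstm1, a glutathione transferase with close paralogs and so of uncertain assignment, rose by 4.10 ± 0.60 (adjusted p = 0.000182). The background was 55.2% called with a median of 0.0061.

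With TGFB1 in monolayers the conjugation list held 6 lower and 2 higher genes of 15 (median -0.47), beside 16.9% of all genes called. Ephx1, epoxide hydrolase 1, fell by 1.58 ± 0.31 (adjusted p = 0.00657, limma) and Abcc4, an efflux pump of conjugates, rose by 1.61 ± 0.23 (adjusted p = 0.00131). The heme and iron list had 3 of 9 lower and none higher, with Slc48a1, a heme transporter, down by 1.14 ± 0.22 (adjusted p = 0.00657). Of the rest, 2 of 12 glutathione genes fell, 3 of 14 thioredoxin and superoxide genes fell and 1 rose, and 1 of 6 NADPH genes fell. No NRF2 regulator of 13 passed (limma; 0 with an unadjusted p under 0.05), and no ATF4 target of 11 (1 unadjusted).

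In TGFB1 spheroids against untreated ones, 4 of 6 NADPH genes fell and none rose (median -0.57), Idh1 by 2.03 ± 0.38 (adjusted p = 0.00222, limma) and Me1, malic enzyme, by 1.75 ± 0.41 (adjusted p = 0.00717). The heme and iron list had 4 of 9 lower (median -0.40; 7 of 9 with equal column sums), Slc40a1 by 1.80 ± 0.35 (adjusted p = 0.00254). In the conjugation list 6 fell and 2 rose of 15 (median -0.40; 9 and 1 with equal column sums), Gstm1 by 3.66 ± 0.60 (adjusted p = 0.00105). Among regulators 5 rose and 2 fell of 13 (median 0.21), with Mafk, a small MAF partner, up by 1.17 ± 0.15 (adjusted p = 0.000224) and Bach2, a competing repressor, up by 0.88 ± 0.21 (adjusted p = 0.00854). Of the glutathione genes 1 rose and 3 fell of 12, among them Gsr, glutathione reductase (-0.41 ± 0.13, adjusted p = 0.0335), and Chac2, which degrades glutathione (-1.60 ± 0.35, adjusted p = 0.00481). Txn1, the substrate of thioredoxin reductase, rose by 1.02 ± 0.13 (adjusted p = 0.000220), one of 2 higher and 2 lower genes of 14. Of 11 ATF4 targets 1 rose and none fell, Phgdh (0.79 ± 0.21, adjusted p = 0.0152). Against monolayers Phgdh was lower in spheroids, both untreated (-2.57 ± 0.21, adjusted p = 3.51e-06, limma) and under TGFB1 (-1.64 ± 0.21, adjusted p = 8.61e-05). The background was 35.6% called with a median of 0.0026.

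Under TGFB1 the spheroid and monolayer difference gave 7 higher and 3 lower regulators of 13, 6 and 1 of the 14 thioredoxin and superoxide genes, 4 and 4 of the 15 conjugation genes, 3 and 4 of the 12 glutathione genes, 2 and 2 of the 6 NADPH genes, 2 and 4 of the 9 heme and iron genes and 4 and 1 of the 11 ATF4 targets (3 and 4 of 12 with equal column sums), beside 51.9% of all genes. Fth1, the ferritin heavy chain, rose by 2.21 ± 0.31 (adjusted p = 0.000139, limma). In the test of whether the TGFB1 effect differed between cultures, 2 of 14 thioredoxin and superoxide genes passed, Txn1 (1.04 ± 0.18, adjusted p = 0.00363) and Sod3, extracellular superoxide dismutase (2.91 ± 0.77, adjusted p = 0.0276), beside 15.8% of all genes. Of 12 glutathione genes 4 passed, Ggt5 (-3.26), Chac2 (-2.04) and Gsr (-0.82) with a lower effect in spheroids and Ggct (1.14) with a higher one. Passing too were 2 of 13 regulators (Mafk 0.93, Btrc -0.59), 1 of 6 NADPH genes (Tkt -0.56), 2 of 9 heme and iron genes (Fth1 1.67, Slc40a1 -1.82) and 3 of 15 conjugation genes (Mgst1 1.84, Abcc4 -1.19, Ptgr1 -0.42). Of 11 ATF4 targets none passed (limma; 1 with an unadjusted p under 0.05).

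With Snail, 2 genes of the lists passed, both lower. They were Gsr (-0.35 ± 0.06, adjusted p = 0.0384, limma), of 12 glutathione genes, and Tfrc (-0.45 ± 0.05, adjusted p = 0.00685), of 9 heme and iron genes. None passed of 12 regulators, 14 thioredoxin and superoxide genes, 6 NADPH genes, 15 conjugation genes and 11 ATF4 targets. Over all genes 1.72% were called, 1.14% as lower. Neither Gsr nor Tfrc kept its call in every fit. Gsr lost it without any 1 of the 6 libraries (adjusted p from 0.0594 to 0.130), and Tfrc without Snail library 2 (0.051). In the libraries labelled BRCA1 deleted, 5 of 13 thioredoxin and superoxide genes fell and none rose (median -1.15, against 0.17 over all genes), among them Prdx2 (-2.35 ± 0.57, adjusted p = 0.0418, limma) and Txnip, an inhibitor of thioredoxin (-1.75 ± 0.24, adjusted p = 0.00634). The background was 14.3% called, 5.27% as lower. Without control 2, 11 of these 13 fell, beside 25.6% of all genes lower, and with equal column sums 1 did, beside 1.33%. In the conjugation list 5 fell and 1 rose of 15 (median -0.61), with Cbr3, a carbonyl reductase, down by 2.23 ± 0.50 (adjusted p = 0.0338) and Osgin1 by 2.19 ± 0.53 (adjusted p = 0.0402). Without control 2 these were 9 and 2, and with equal column sums 1 and 1. Among regulators Mafg (1.58 ± 0.35, adjusted p = 0.0339) and Nfe2l1 (1.14 ± 0.29, adjusted p = 0.0442) rose and none fell, calls lost with equal column sums. Without control 2, 6 rose and 2 fell, beside 40.5% of all genes higher and 25.6% lower. The glutathione list had 2 higher and 2 lower of 12, and of 9 heme and iron genes Slc40a1 rose (2.60 ± 0.38, adjusted p = 0.00811) and Blvra, biliverdin reductase A, fell (-1.88 ± 0.42, adjusted p = 0.0329). Of 6 NADPH genes Idh1 rose (1.28 ± 0.25, adjusted p = 0.0218). Of 12 ATF4 targets Sesn2 (1.34) and Aldh18a1 (1.26) rose and none fell (median 0.71). Without control 2 these were 6 higher and 1 lower, beside the same 40.5% and 25.6% of all genes. With equal column sums no ATF4 target was called. None of the 19 list genes named by rule in this experiment kept its call in every fit without 1 library, and 2 did in every other setting. The summed level of granulosa and theca markers was 46.4 to 50.2 in controls and 129 to 225 in deleted libraries. Of these, Cyp19a1, Cyp17a1 and Fshr were under 1 in every library. Amh went against the sum, averaging at least 1 in controls and lying under 1 in every deleted library. Oocyte markers summed to 10.96 to 25.6 and 1.40 to 2.06, with Bmp15, Gdf9 and Zp3 under 1 in every library. Ddx4 averaged at least 1 in controls and was under 1 in every deleted library. Fibroblast and stroma markers summed to 642 to 1070 and 1067 to 1390. The part of all these markers in these results was not tested.

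**Figure D5:**
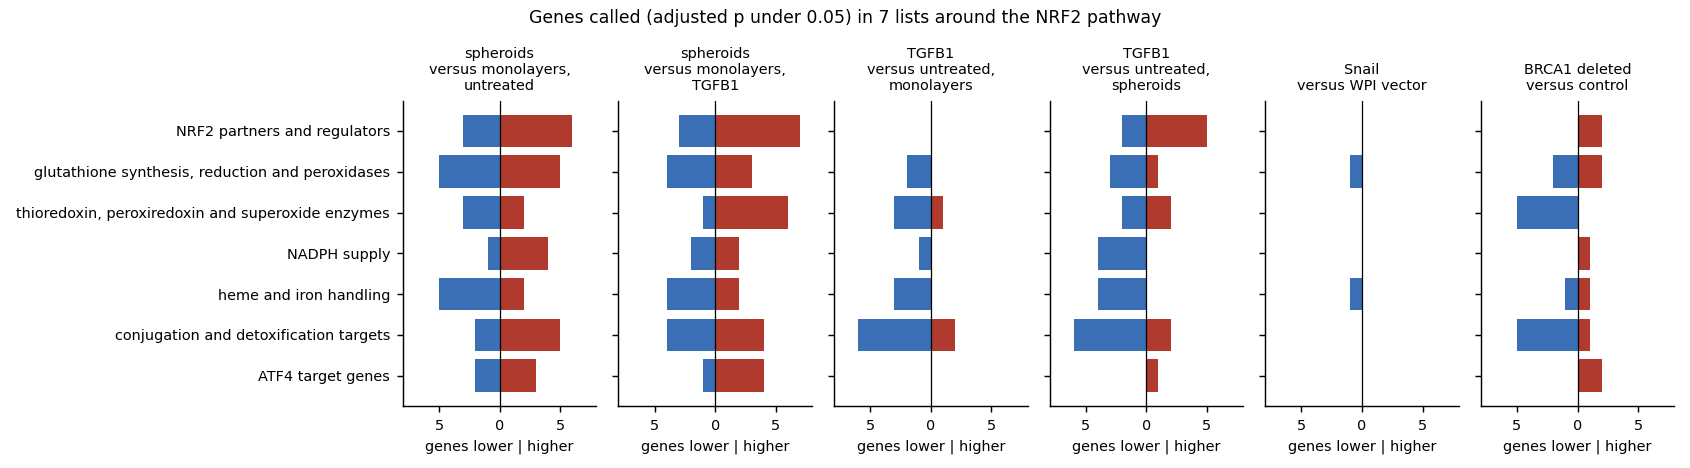
Number of genes called at an adjusted p under 0.05 in 7 lists around the NRF2 pathway, higher to the right (red) and lower to the left (blue), for 6 comparisons. NADPH and heme and iron genes are called only as lower in TGFB1 spheroids against untreated spheroids, and 2 list genes are called with Snail.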

How the data were processed

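Directional poly(A) RNA-seq was made from 24 libraries in 8 groups of 3. Per the submitters' processing notes, kallisto 0.44.0 and sleuth 0.30.0 were used with GRCm38. The deposited gene tables carry the name TPM, but their columns do not sum to 1000000, so the authors' values were treated as a length-normalized signal (scaled TPM) and not as counts. The test planned for TPM was kept. The authors' deposited comparison tables give p-values, q-values and natural log coefficients; for the 4 culture groups a single p covers 3 terms at once. There 9 of 10 members had a q under 0.05 (not Hmox1, q = 0.0984), a value not used for any comparison. The share of all genes under that q was not counted in any of the authors' comparisons, so these member counts have no background beside them. Identifiers were matched to GENCODE M21 names (98.4% found).

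Within each table, log2(scaled TPM + 1) was fitted with limma 3.58.1 (lmFit, eBayes with trend; R 4.3.3) over genes at 1 or more in at least 3 libraries, with two-sided Benjamini-Hochberg adjusted p-values called under 0.05. The 4 culture groups (12 libraries) shared a fit. Fold changes are on that log2 scale and understate low genes such as Slc7a11. The 3 tables were normalized separately and are not compared. Folds called "times" are ratios of mean scaled TPM. Script tests on simulated data preceded the fits. Tables and plots used Python 3.11.15, pandas 2.3.3, numpy 2.4.6 and matplotlib 3.10.9.

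The members, the 7 lists and the tests were chosen with earlier results of these data known. List genes named are taken from the called genes of each list and comparison with the largest absolute change, up to 4, and genes of similar profile are the nearest 3, of which 1 is not reported here. Alternatives tried were 2 other scalings, 2 pseudocounts, no filter and a higher one, no variance trend, library weights, a block for replicate numbers, separate fits and each library left out.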

Additional observations from a re-analysis of the deposited data

Results flagged for a closer look

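Gclc, the catalytic subunit of glutamate-cysteine ligase, stood out because its response to TGFB1 differed between the cultures by an interaction term. Culture cannot be told apart there from the timing of TGFB1 or from the origin of the libraries. The log2 effect of TGFB1 in spheroids minus that in monolayers was 0.99 ± 0.22 (SE; 95% interval 0.51 to 1.47; adjusted p = 0.0117, limma). It passed with each of the 12 libraries left out in turn, and missed the threshold with equal column sums (0.77, adjusted p = 0.0533).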

How the results depend on the processing

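Of 70 member results, 21 were called. All 21 kept their sign in every setting, 15 stayed called in every fit without 1 library, and 15 in every other setting. Of the 49 uncalled results, 23 passed in at least 1 setting and 15 changed sign in at least 1. Of the list genes the naming rule gave, 24 of 28, 7 of 14, 18 of 25, 24 of 28, 6 of 14, 0 of 2 and 0 of 19 (in the order of the report, the interaction before Snail and BRCA1) stayed called in every fit without 1 library. The cause of the changes below was not tested, except that separate fits hold fewer samples.

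Counts of members called (5, 2, 6, 6, 1, 0 and 1 in the order of the report) moved under several settings, and not every smaller move is listed. For TGFB1 in spheroids 4 were called with equal column sums, beside 39.5% of all genes, and 4 in the fit of 6 libraries, beside 21.6%. Equal column sums gave 7 for untreated spheroids against monolayers, beside 54.7%. Library weights gave 8 for untreated spheroids against monolayers, beside 72.2% of all genes, and 10 for TGFB1 in monolayers, beside 47.6%. They gave 2 for the interaction, beside 32.5%, and 8 for BRCA1, beside 90.3%. For TGFB1 in monolayers, 1 was called with equal column sums (16.8% of all genes), with no filter (7.06%) and with no trend (15.5%). In the fit of 6 libraries 8 were called (30.7%). Pseudocount 5 gave 2 for the interaction (16.5%). For BRCA1, 0 were called with equal column sums (6.77%), no filter (4.46%) or a minimum of 5 (10.4%). Median-ratio scaling gave 2 for BRCA1 (14.7%).

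Of the counts over all genes, only the larger moves are listed. For TGFB1 in monolayers they moved from 2284 to 6431 (weights) and 3771 (6 libraries). They moved for TGFB1 in spheroids from 4810 to 2787 (6 libraries), and for the interaction from 2138 to 4385 (weights). For Snail they moved from 210 to 54 (no filter). For BRCA1 they moved from 1828 to 878 (equal column sums), 1091 (no filter), 1050 (minimum of 5) and 11536 (weights).

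Uncalled members that turned sign were Txnrd1 in untreated spheroids against monolayers (0.00019 with equal column sums, 0.053 with weights) and Prdx1 with TGFB1 in spheroids (-0.17 with equal column sums, -0.0025 with median-ratio scaling). Under TGFB1, spheroids against monolayers gave -0.11 for Keap1 (equal column sums) and 0.058 for Hmox1 (weights), and the interaction gave -0.20 for Srxn1 (equal column sums). For BRCA1, equal column sums gave 0.036 for Nfe2l2 and 0.15 for Prdx1, median-ratio scaling -0.12 for Keap1 and -0.12 for Txnrd1, and weights -0.087 for Keap1.

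Leaving out each library in turn, members called ranged from 0 to 2 (TGFB1 in monolayers), 1 to 2 (interaction) and 0 to 4 (BRCA1). All genes called ranged from 1220 to 1715 (TGFB1 in monolayers), 3095 to 4816 (TGFB1 in spheroids), 1307 to 2658 (interaction), 23 to 74 (Snail) and 57 to 8295 (BRCA1). Uncalled differences ranged for Txnrd1 from -0.16 to 0.12 (untreated spheroids against monolayers), -0.062 to 0.090 (Snail) and -0.30 to 0.37 (BRCA1). For TGFB1 in spheroids they ranged from -0.62 to 0.39 (Hmox1), -0.25 to 0.066 (Nqo1), -0.056 to 0.13 (Prdx1) and -0.28 to 0.021 (Srxn1). Hmox1 ranged from -0.67 to 0.29 in spheroids against monolayers under TGFB1, Nqo1 from -0.40 to 0.0016 with Snail, and Keap1 from -0.025 to 0.047 for BRCA1. In the interaction Nfe2l2 ranged from -0.24 to 0.0015 and Srxn1 from -0.12 to 0.17.

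Replicate numbers did not pair libraries: same-numbered deviations correlated at -0.32 to 0.19 in the monolayer and spheroid table, 0.33, -0.015 and -0.078 with Snail, and -0.053, -0.17 and -0.11 for BRCA1. With a replicate block 16 genes were called for Snail and 433, with 0 members, for BRCA1. Slc7a11 was not testable in the Snail table under a minimum of 5. Depth is unknown, so counting error could not be given.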
